A study of Zea mays with 9 samples.

Results

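The transcripts described here come from 3 highly expressed nuclear genes of carbon fixation in the maize leaf, taken by their identifiers out of the 39755 genes of the count table. Zm00001eb197410 encodes the small subunit of Rubisco, Zm00001eb408010 a fructose-bisphosphate aldolase of the chloroplast, and Zm00001eb080840 subunit A of the chloroplast glyceraldehyde-3-phosphate dehydrogenase (GAPA). The study compared leaves of maize (Zea mays) genotype Golden Bantam after infiltration with the plant defence hormone salicylic acid (SA) or with Zip1, a maize signalling peptide of the phytocytokine class. Seedlings were 8 days from sowing when leaf 2 was cut and the solution was drawn in under a vacuum of 60 mbar. The mock group received water with 0.1% DMSO, the SA group 2 mM salicylic acid and the Zip1 group 5 µM of the peptide, and tissue was taken 6 h later. The labels name DMSO for the mock solution alone. All 3 groups thus share the cutting and the vacuum, and no group of untreated leaves is analysed here. Each group has 3 libraries of poly-A RNA, 9 in all. The labels do not say whether the libraries of a group came from separate plants, so p-values measure only the spread between these libraries, which may be technical.

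In the Calvin-Benson cycle of the chloroplast, Rubisco joins carbon dioxide to ribulose bisphosphate, the product is reduced to triose phosphate, and the remaining enzymes rebuild the acceptor. Rubisco is made of small subunits encoded in the nucleus and large subunits encoded in the chloroplast. Glyceraldehyde-3-phosphate dehydrogenase, built from A and B subunits, carries out the reduction with NADPH. Aldolase condenses sugar phosphates at the branch where carbon passes to regeneration or to starch. Maize is a C4 plant, in which Rubisco works in the bundle sheath around the veins while the reduction step is shared with the mesophyll. Genes of photosynthesis are known to be lowered in many defence responses.

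The libraries held 28840453 to 38794412 counts, which were scaled by the trimmed mean of M values (TMM). The 3 genes together took from 1.51% of the counts in SA replicate 1 to 2.26% in mock replicate 2. The lowest count of any of them in any library was 117865, at which counting alone gives an error of 0.291%, so that nearly all of the spread described below is spread between libraries. Markers of green leaf were abundant in every library: the summed level of that list, of whose 32 genes 5 were at 0 throughout, was 40576 to 88651 CPM (counts scaled to library size) in mock, 43941 to 59659 in SA and 32190 to 64512 in Zip1. The 13 mesophyll markers, none at 0, summed to 62975 to 69709, 55876 to 65673 and 52968 to 69539 in the same order. The 15 bundle sheath markers summed to 9313 to 13768, 10401 to 11377 and 9343 to 13711. The green leaf markers are chlorophyll a-b binding proteins and the mesophyll markers genes of the C4 cycle. The bundle sheath markers include phosphoribulokinase genes of the Calvin-Benson cycle. These marker lists thus overlap the gene lists described below and are not independent of them. The 17 epidermal markers, 3 of them at 0 throughout, reached at most 170.5 CPM and the 2 phloem markers at most 1191. In this class of genes 1 library tended to be the highest of its group. Mock replicate 2 held the highest mock value for 26 of the 29 tested Calvin-Benson genes (89.7%) and for 60 of 68 genes of light harvesting and the photosystems (88.2%), against 32.5% of all tested genes. Zip1 replicate 1 was the highest Zip1 library for 20 of the 29 and 56 of the 68, against 33.5% of all tested genes. Among SA libraries, replicate 3 was the highest for 17 of the 29 and replicate 2 for 47 of the 68. The values of the 3 genes and the medians of the lists are given with and without mock replicate 2. Because that library was picked for its high values, leaving it out raises most changes against mock. The direction of such a shift was thus fixed in advance and is no test of the medians. In whole-leaf RNA, fewer cells of a type and less RNA per cell cannot be told apart.

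Levels of different genes are comparable only per length, and are given as counts per kilobase of gene, after scaling to CPM with the TMM factors. On this scale the Rubisco small subunit gene stood 3rd among the 23077 tested genes by its mean of 8514 over the libraries, and its rank within a library ran from 2 to 4. GAPA had a mean level of 2735 (ranks 19 to 38) and the aldolase a mean level of 2631 (ranks 18 to 40). By mean level GAPA and the aldolase differed by less than the spread of either within the mock group, where their levels were 2868 ± 923 and 3120 ± 189 (SD, n = 3). Among the 29 tested Calvin-Benson genes the 3 genes ranked 1st, 3rd and 4th. The 2nd was the other small subunit gene, Zm00001eb092540, at 3723, and the next were the GAPDH subunit B gene (GAPB, Zm00001eb002270) at 1636 and a phosphoribulokinase gene (Zm00001eb251520) at 1339. The plot of levels by step of the cycle shows that each enzyme is carried mainly by 1 or a few genes, with paralogues spread over the lower decades.

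**Figure D1:**
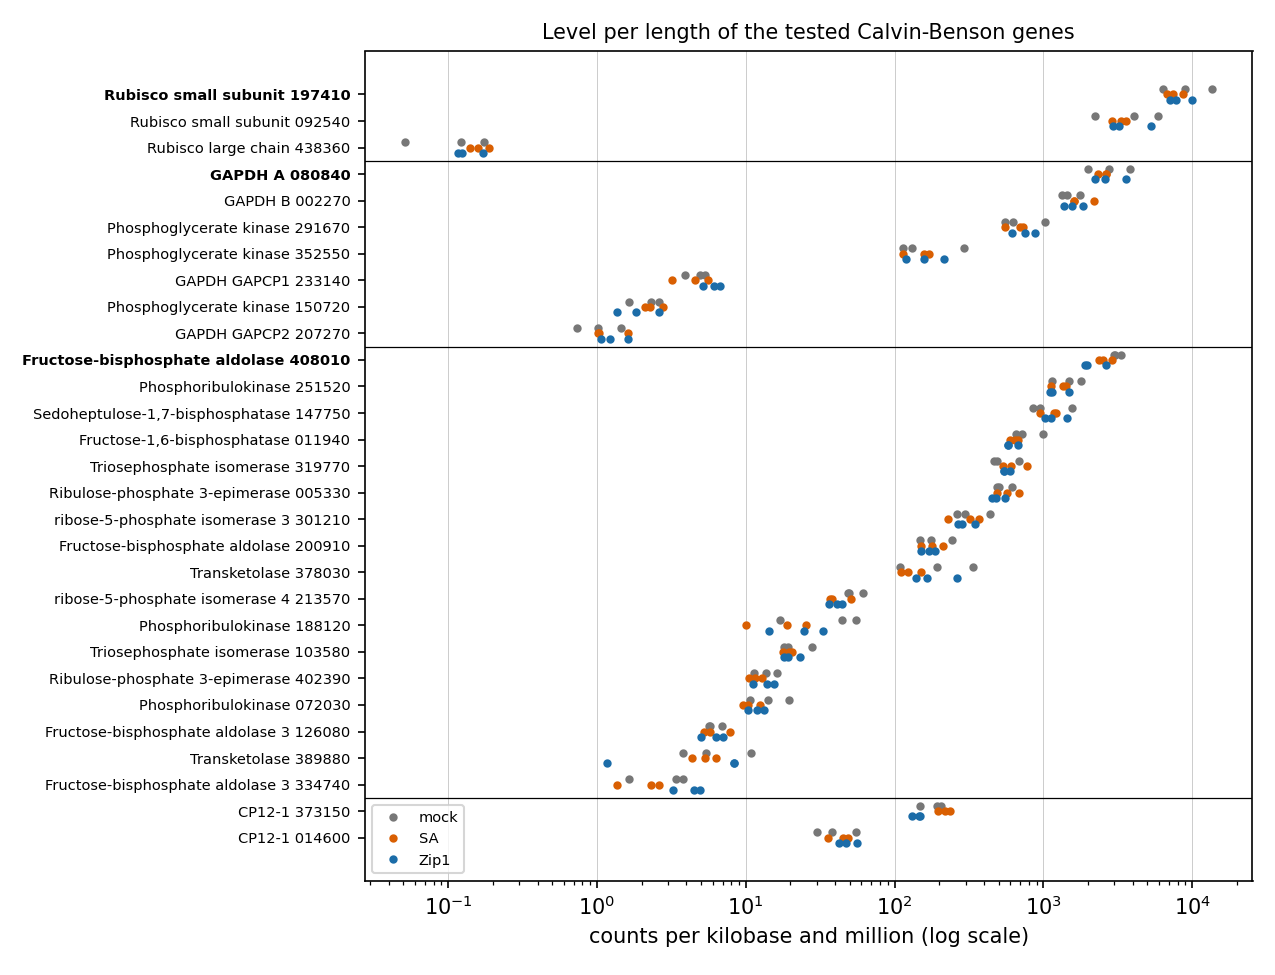
Level per length of the 29 tested Calvin-Benson genes in each of the 9 libraries, in CPM per kilobase of gene on a log axis, grouped from top to bottom into carboxylation, reduction, regeneration and regulation. Points are single libraries coloured by group, labels end in the last 6 digits of the gene identifier, and the 3 genes described here are in bold; the small subunit gene has a mean level of 8514 and the 2 next to it in bold 2735 and 2631.

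The Rubisco small subunit gene Zm00001eb197410 lies on chromosome 4, from 196177320 to 196178190 on the minus strand (build not given in the sources used here), with a gene length of 707 bases in the table. Its protein entry is the maize small subunit itself. The normalised counts, scaled to the mean library size, were 199093, 303903 and 142243 in mock replicates 1 to 3, then 151724, 194626 and 164740 in the SA libraries and 221385, 172631 and 157720 in the Zip1 libraries. The mock values enclosed those of SA and of Zip1 entirely. The highest mock library had 2.14 times the lowest, a range exceeded by 24.5% of all tested genes, while the corresponding ratios in SA and Zip1 were 1.28 and 1.40. The group means were 215080 ± 82007 for mock, 170363 ± 21997 for SA and 183912 ± 33298 for Zip1 (SD, n = 3).

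In edgeR's quasi-likelihood test with Benjamini-Hochberg adjustment over all genes, the small subunit transcript did not pass the threshold in any comparison. Its log2 fold change with SA against mock was −0.34 (SE 0.281, adjusted p 0.589), that is 0.792 times the mock level with a 95% interval of 0.516 to 1.22 times. With Zip1 against mock it was −0.23 (SE 0.281, adjusted p 0.852), or 0.855 times with an interval of 0.557 to 1.31. Zip1 and SA differed by 0.11 (SE 0.281, adjusted p 0.897), or 1.08 times with an interval of 0.703 to 1.66. Without mock replicate 2, the highest library, the log2 fold changes against mock were −0.0047 with SA and 0.11 with Zip1. Without mock replicate 3, the lowest library, they were −0.56 and −0.45. The size of the difference from mock thus depended on which mock libraries were kept. The intervals are approximate and belong to the fit to all 9 libraries. Outside them lie changes to under 0.516 or over 1.22 times the mock level with SA. With Zip1 these bounds are 0.557 and 1.31 times. Intervals for the fits without a mock library are not given, so the bounds do not exclude a larger change.

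The second small subunit gene, Zm00001eb092540 (chromosome 2, 147040782 to 147041974, plus strand), shares the protein entry of the first. Mock libraries held 137252, 201267 and 75959 normalised counts of it, SA libraries 98573, 121388 and 112257, and Zip1 libraries 179165, 110012 and 99881. Again mock replicate 2 was the highest library and mock replicate 3 the lowest. Its log2 fold changes were −0.32 with SA (SE 0.340, adjusted p 0.690) and −0.09 with Zip1 (SE 0.340, adjusted p 0.957), and 0.05 and 0.28 without mock replicate 2. Per length, the first gene exceeded the second by 1.88 to 2.85 times in every library. This ratio was 2.45 ± 0.347 for mock, 2.34 ± 0.103 for SA and 2.22 ± 0.297 for Zip1 (SD, n = 3), and the groups overlapped (exact permutation p 0.9 for SA against mock and 0.6 for Zip1 against mock, two-sided). Reads of the pair may have been divided between them or dropped in the authors' counting, so the share of each is uncertain. The first gene also overlaps Zm00001eb197420 on the opposite strand by 35 bases, but that gene held at most 4 counts in a library. Of 22 rows described as the Rubisco large chain, which is a chloroplast gene, 21 were too low to be tested, with at most 6 counts in a library, and the other, on an unplaced scaffold, had 9.38 ± 4.98 normalised counts in mock (SD, n = 3). The libraries were made from poly-A RNA, which chloroplast transcripts mostly lack.

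**Figure D2:**
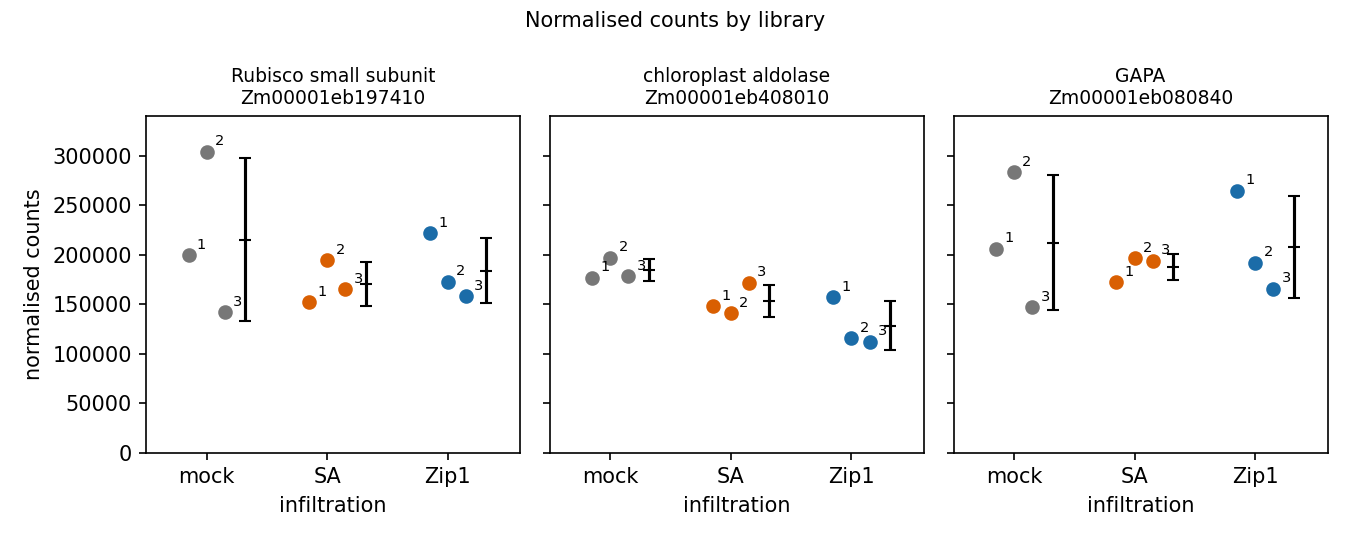
Normalised counts for each of the 9 libraries (points, numbered by replicate) with the group mean and SD (bars) for the 3 genes. For the small subunit and GAPA the mock libraries span 142243 to 303903 and 147255 to 283406 and enclose the other groups, while for the aldolase the highest Zip1 library, 156717, lies below the lowest mock library, 176672.

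GAPA, Zm00001eb080840, lies on chromosome 2 (44074774 to 44077244, minus strand) and has a gene length of 2347 bases. Mock replicates 1 to 3 held 205925, 283406 and 147255 normalised counts of it, the SA replicates 172462, 196466 and 193853, and the Zip1 replicates 264655, 191972 and 165632. As for the small subunit, mock replicate 2 was the highest and mock replicate 3 the lowest of all 9 libraries, and within Zip1 replicate 1 was the highest. Group means were 212195 ± 68292 (mock), 187594 ± 13169 (SA) and 207420 ± 51287 (Zip1), each with its SD and n = 3. The log2 fold change was −0.18 with SA (SE 0.271, adjusted p 0.798), or 0.884 times with a 95% interval of 0.585 to 1.34. With Zip1 it was −0.03 (SE 0.271, adjusted p 0.979), or 0.978 times with an interval of 0.646 to 1.48, and Zip1 against SA gave 0.14 (SE 0.271, adjusted p 0.852). Without mock replicate 2 the changes against mock were 0.09 with SA and 0.23 with Zip1, so neither direction was stable. Without mock replicate 3 they were −0.39 with SA and −0.24 with Zip1. The 3 other rows with the same protein entry, all on chromosome 10, were too low to be tested, with at most 16 counts in a library.

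The partner subunit gene GAPB (chromosome 1, 6360197 to 6362989, plus strand) varied less within mock, at 101371, 132275 and 108433 normalised counts. The SA libraries held 121047, 121376 and 165919 and the Zip1 libraries 138657, 117111 and 104021, and its log2 fold changes of 0.26 with SA (SE 0.218, adjusted p 0.598) and 0.07 with Zip1 (SE 0.218, adjusted p 0.947) did not pass. GAPA exceeded GAPB per length in every library, by 1.19 times in SA replicate 3 to 2.18 times in mock replicate 2. The ratio averaged 1.88 ± 0.433 for mock, 1.43 ± 0.230 for SA and 1.75 ± 0.174 for Zip1 (SD, n = 3), groups that overlapped (exact permutation p 0.3 for SA against mock, two-sided).

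The aldolase Zm00001eb408010 (chromosome 10, 10046907 to 10048855, minus strand, gene length 1871 bases) is described after a rice protein, the chloroplast aldolase ALDP. Its normalised counts in mock replicates 1 to 3 were 176672, 196877 and 178560. The SA libraries held 147761, 140556 and 171595, and the Zip1 libraries 156717, 115890 and 112148. All 3 mock libraries lay above all 3 SA libraries and all 3 Zip1 libraries, and SA and Zip1 overlapped. The mock libraries were within 1.11 times of each other, a ratio exceeded by 91.6% of tested genes, where the small subunit and GAPA spanned 2.14 and 1.93 times. On average there were 184037 ± 11160 in mock leaves, 153304 ± 16245 after SA and 128252 ± 24723 after Zip1 (SD, n = 3).

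With Zip1 against mock the aldolase had a log2 fold change of −0.52 (SE 0.205), or 0.697 times the mock level with a 95% interval of 0.509 to 0.953. Its unadjusted p in edgeR's quasi-likelihood test was 0.0277, which did not survive adjustment over all genes (adjusted p 0.344). With SA against mock the change was −0.26 (SE 0.205, adjusted p 0.554), or 0.833 times with an interval of 0.609 to 1.14, and Zip1 against SA gave −0.26 (SE 0.205, adjusted p 0.591). The groups without overlap do not set this gene apart, because 10.5% of all tested genes were lower in every SA library than in every mock library, and 7.35% were lower in every Zip1 library than in every mock library. The value with Zip1 did not depend on mock replicate 2, without which it was −0.47, and over the fits that left out 1 library it ran from −0.69 to −0.43. In the DESeq2 Wald test the adjusted p was 0.0704, the lowest over the alternatives for this gene and contrast, and it reached 0.681 without Zip1 replicate 3. Both comparisons with mock use the same 3 mock libraries.

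The paralogue Zm00001eb200910 (chromosome 4, 210874860 to 210878709, minus strand) shares the protein entry and had a level of 180.1 per length against 2631. The group means were 11688 ± 2994 normalised counts (mock), 11124 ± 1918 (SA) and 10452 ± 1160 (Zip1; SD, n = 3), with log2 fold changes of −0.07 (adjusted p 0.909) and −0.16 (adjusted p 0.865), and 0.15 and 0.06 without mock replicate 2. The abundant gene exceeded it per length by at least 10.1 times in every library, a ratio of 17.0 ± 3.18 for mock, 14.5 ± 1.77 for SA and 12.9 ± 2.71 for Zip1 (SD, n = 3; exact permutation p 0.2 for each against mock, two-sided). A further pair of tested genes described as aldolase 3 of the chloroplast lay far lower, at levels of 6.18 for Zm00001eb126080 and 3.09 for Zm00001eb334740. The latter averaged 212.5 ± 82.1 (mock), 151.8 ± 47.5 (SA) and 305.3 ± 62.8 (Zip1) normalised counts and was higher in all Zip1 than in all SA libraries (log2 difference 1.01, SE 0.353, adjusted p 0.157), where 11.5% of all tested genes were.

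Across the 3 genes the count of calls was 0 in each comparison, where edgeR called 6.22% of all tested genes for SA against mock, 0.884% for Zip1 against mock and 4.11% for Zip1 against SA at an adjusted p under 0.05. In the same order, 5.11%, 0.823% and 1.56% of tested genes were called higher and 1.11%, 0.0607% and 2.56% lower. Groups without overlap were found for the aldolase alone among the 3, lower with SA and lower with Zip1 than mock. Over all tested genes, 13.5% and 10.3% lay wholly above mock with SA and Zip1, and 12.0% lay wholly lower with Zip1 than with SA. Of the 9 tests, 1 had an unadjusted p under 0.05, the aldolase with Zip1, and DESeq2 also made 0 calls. A replicate block was also fitted, in which same-numbered libraries of all groups, Zip1 included, shared a term. With it edgeR called 2220 genes for SA against mock in place of 1436, again with none of the 3 among them. The 95% intervals of the 3 genes reached as far as 0.509 times and 1.67 times. A missed threshold therefore does not show that the groups were alike.

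**Figure D3:**
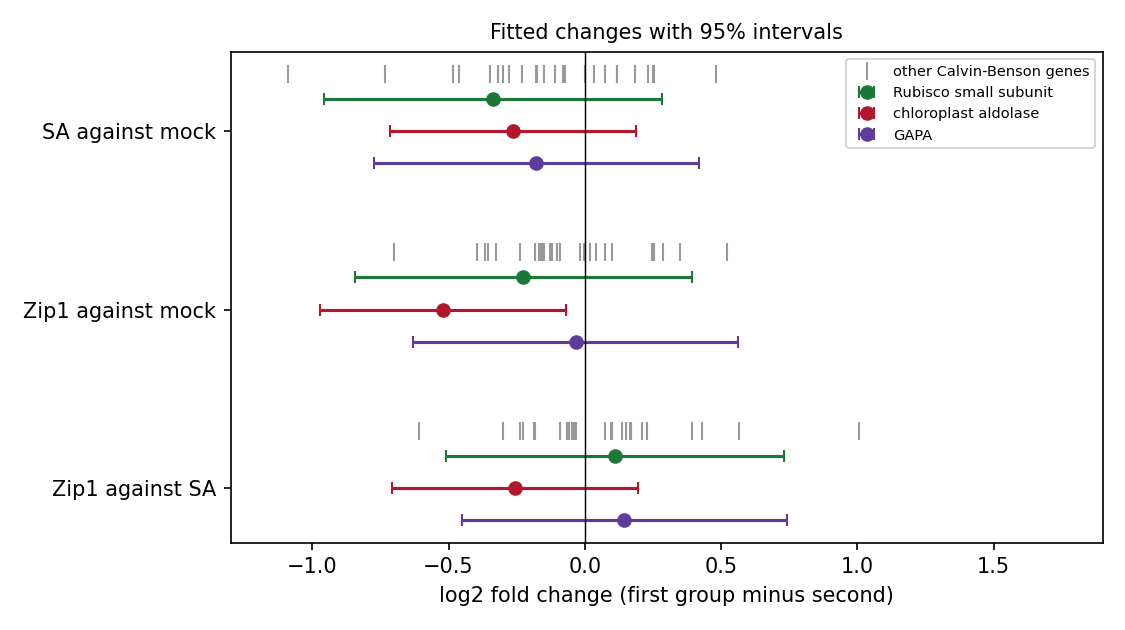
Fitted log2 fold changes (points) with 95% intervals (bars) of the 3 genes in each comparison, above 0 meaning higher in the group named first; grey ticks are the other 26 tested Calvin-Benson genes. The interval of the aldolase for Zip1 against mock, −0.97 to −0.07, is the only 1 of the 9 that leaves out 0.

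Ratios between the genes within a library remove the library scaling. GAPA over the small subunit per length was the steadiest of the 3 ratios. It was 0.312, 0.281 and 0.312 for mock, 0.342, 0.304 and 0.354 for SA, and 0.360, 0.335 and 0.316 for Zip1. All Zip1 values were above all mock values, by 0.16 on the log2 scale (exact permutation p 0.1, two-sided). The aldolase over GAPA was 1.08, 0.871 and 1.52 for mock, 1.07, 0.897 and 1.11 for SA, and 0.743, 0.757 and 0.849 for Zip1. Every Zip1 library was below every mock and every SA library, with log2 differences of −0.53 and −0.39 (exact permutation p 0.1 for each). The aldolase over the small subunit was 0.335, 0.245 and 0.474 for mock, 0.368, 0.273 and 0.394 for SA, and 0.267, 0.254 and 0.269 for Zip1. Here Zip1 lay below SA in every library (log2 difference −0.37, exact permutation p 0.1) but overlapped mock (p 0.4). With 3 libraries against 3 the smallest p the exact test allows is 0.1, and after Benjamini-Hochberg adjustment over the 18 ratio tests made the lowest was 0.45. These ratios were chosen after the values were seen.

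**Figure D4:**
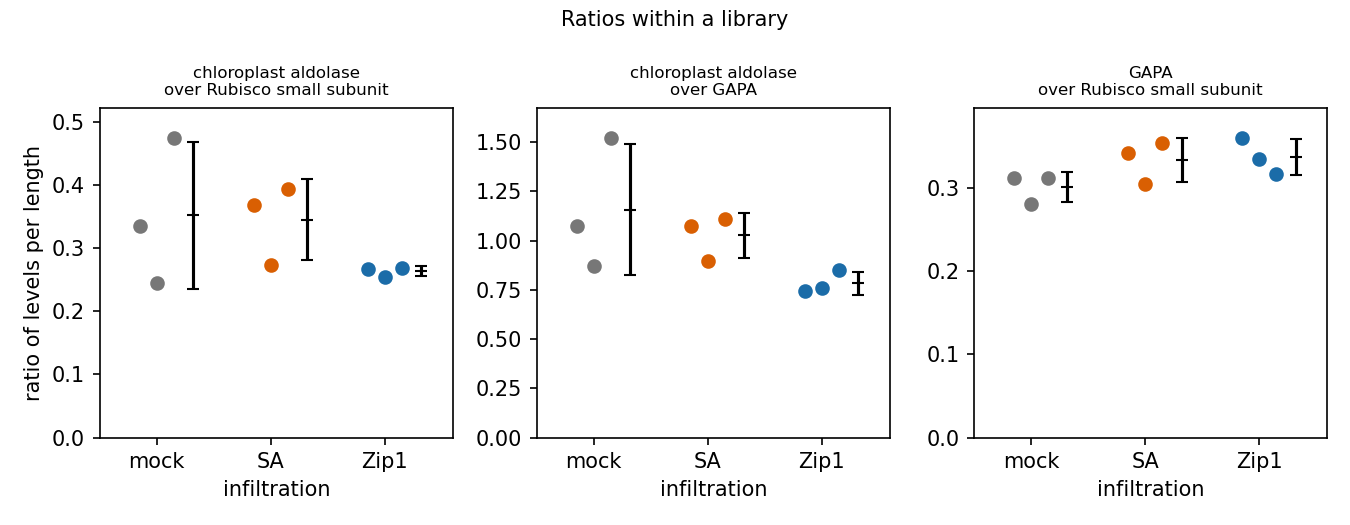
Ratios of levels per length within each library (points) with the mean and SD of each group (bars) for the 3 pairs of genes. Aldolase over GAPA is 0.743 to 0.849 in Zip1 and 0.871 to 1.52 in mock, while GAPA over the small subunit stays between 0.281 and 0.360 in all 9 libraries.

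The likeness of patterns was measured as the root mean square difference of log2 CPM over the 9 libraries, each gene centred on its own mean. By this measure the small subunit and GAPA differed by 0.11, and GAPA was the 10th nearest of all described genes to the small subunit. The aldolase differed from them by 0.31 for each, at rank 1718 of 18023 from the small subunit and rank 2079 from GAPA. The median distance of all described genes was 0.50 and 0.48. A gene with the same value in all 9 libraries would differ by 0.32 from the small subunit and 0.29 from GAPA. The aldolase was thus about as far from each as such a flat gene. Nearest to the small subunit were Zm00001eb311660, described as the chloroplast CHAPERONE-LIKE PROTEIN OF POR1 (0.095), an oxygen-evolving enhancer protein of photosystem II, Zm00001eb117670 (0.097), and the chloroplast GTPase ERA1, Zm00001eb343970 (0.098). Nearest to GAPA were the peptide chain release factor APG3 of the chloroplast, Zm00001eb165700 (0.094), a photosystem I antenna protein, Zm00001eb100140 (0.094), and again Zm00001eb311660 (0.097). Nearest to the aldolase were genes described as transcription factor bHLH130, Zm00001eb323880 (0.10), DEHYDRATION-INDUCED 19, Zm00001eb295750 (0.11), and the outer envelope pore protein of the chloroplast, Zm00001eb064890 (0.13). These distances describe 9 libraries and carry no test.

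**Figure D5:**
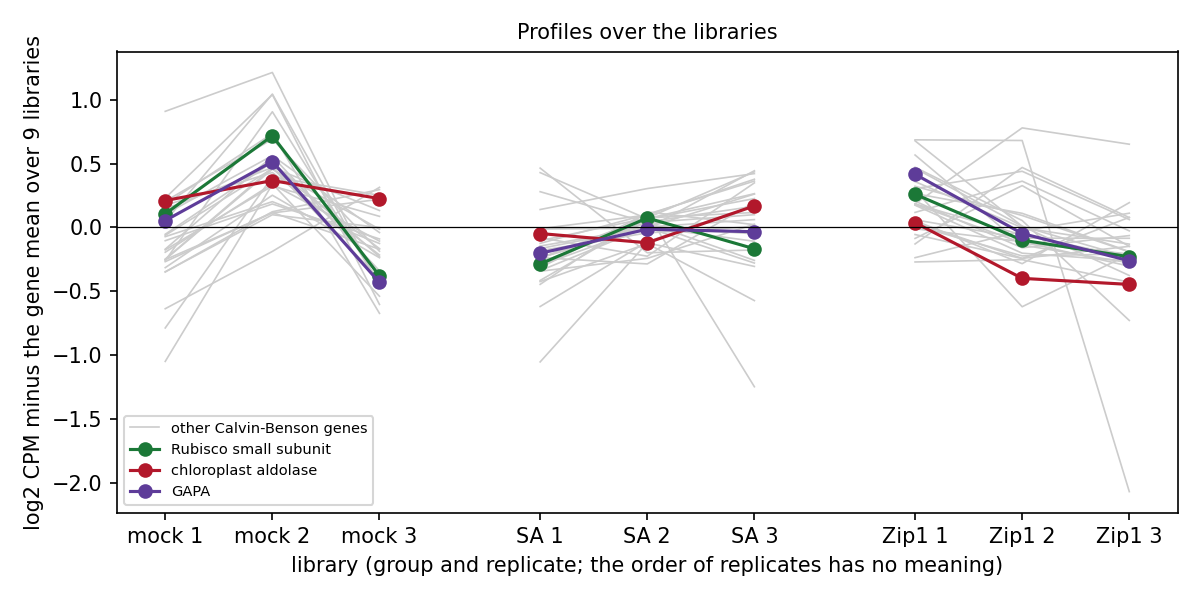
Log2 CPM of each tested Calvin-Benson gene in the 9 libraries after subtraction of its own mean; lines only join the libraries of a group and imply no order. The small subunit and GAPA move together, up in mock replicate 2 and Zip1 replicate 1, with a root mean square difference of 0.11, while the aldolase differs from each by 0.31.

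The list of the cycle held 59 genes, of which 29 had enough counts to be tested and 30 did not. None was called by edgeR in any comparison, and the number with an unadjusted p under 0.05 was 1 for SA against mock, 2 for Zip1 against mock and 2 for Zip1 against SA, against 18.9%, 11.5% and 17.4% of all tested genes. DESeq2 called 0, 0 and 1, and the replicate block in edgeR called 1, 0 and 2. With SA, 19 of the 29 had a log2 fold change below 0, with a median of −0.17 against −0.04 over all tested genes. With Zip1, 20 of the 29 were below 0, with a median of −0.12 against −0.01. Without mock replicate 2 both medians turned, to 0.13 with SA (10 of 29 below 0) and 0.11 with Zip1 (9 of 29). That library was the highest mock library for 26 of the 29, so an upward shift was fixed in advance. It does not decide which medians are nearer the truth. The aldolase had the 2nd lowest value of the list with Zip1, after a minor phosphoribulokinase gene, Zm00001eb188120, the enzyme that makes the acceptor of carbon dioxide. The small subunit stood 6th from the lowest with SA and 8th with Zip1, and GAPA 14th and 18th.

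By role, the 7 tested genes of the reduction step, phosphoglycerate kinases and dehydrogenases, had medians of −0.08 with SA and 0.02 with Zip1 and lay on either side of 0. Without mock replicate 2 these medians were 0.15 and 0.25. The GAPCP members among them belong to plastid glycolysis in Arabidopsis. Of the 17 genes of regeneration, 13 were below 0 with SA and 14 with Zip1, with medians of −0.23 and −0.15 and no call, and of −0.02 and 0.10 without mock replicate 2. They include the phosphatase that acts on the product of aldolase, fructose bisphosphatase Zm00001eb011940, at 38357 ± 8688 (mock), 31120 ± 1822 (SA) and 29756 ± 2798 (Zip1) normalised counts (log2 fold change −0.30, adjusted p 0.470, and −0.37, adjusted p 0.541, and −0.11 and −0.17 without mock replicate 2). Sedoheptulose bisphosphatase, Zm00001eb147750, the partner step on the longer sugar, averaged 50818 ± 17356, 50871 ± 6584 and 54434 ± 9865 normalised counts. The minor phosphoribulokinase Zm00001eb188120 averaged 2823 ± 1420 (mock), 1324 ± 571 (SA) and 1739 ± 675 (Zip1) normalised counts (log2 fold change −1.09 with SA, SE 0.471, adjusted p 0.245). With the replicate block it passed for SA against mock (−1.04, adjusted p 0.00748), the only gene of the list to do so in that comparison. The regulator CP12, which binds GAPDH and phosphoribulokinase, was measured from a pair of genes. The more abundant, Zm00001eb373150, stood at 5672 ± 932 (mock), 6755 ± 655 (SA) and 4434 ± 292 (Zip1) normalised counts (SD, n = 3). Its difference between Zip1 and SA was −0.61 (SE 0.170, adjusted p 0.0776 in edgeR and 0.00735 in DESeq2). All its Zip1 libraries lay below all its SA libraries, as they did for 12.0% of all tested genes. The other CP12 gene, Zm00001eb014600, had the opposite sign for Zip1 against SA, at 0.17 (SE 0.223, adjusted p 0.774).

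Related lists give the surroundings of the 3 genes, with calls from edgeR without the block unless stated. Of 23 tested genes for Rubisco activation and assembly, 1 rose with SA, where 5.11% of all tested genes were called higher. None was called with Zip1 against mock, and DESeq2 gave the same counts for both comparisons with mock. For Zip1 against SA edgeR called none, where it called 2.56% of all tested genes lower. DESeq2 and the replicate block each called 1 lower in that comparison. With the replicate block the calls for SA were 2 higher and 1 lower. With SA, 18 of the 23 were below 0, against 53.8% of all tested genes. Their median was −0.29 with SA, but 0.0054 without mock replicate 2. The gene that rose was Zm00001eb212460, described after RbcX protein 2 of Arabidopsis, a chaperone of the Rubisco large subunit. Its normalised counts in the mock libraries were 1046, 746 and 1345, with 2755, 3156 and 4932 after SA and 1929, 1765 and 1900 after Zip1. All SA libraries were above all others, and the log2 fold change with SA was 1.79 (SE 0.255, adjusted p 0.00189), and the call held whichever of the 9 libraries was left out. With Zip1 it was 0.83 (SE 0.250, adjusted p 0.175). RBCX protein 1, Zm00001eb179210, had the opposite sign at −0.72 with SA (adjusted p 0.369) and −0.98 with Zip1 (adjusted p 0.374). Of 13 tested cytosolic counterparts of the cycle's enzymes, edgeR called none against mock, and DESeq2 called 1 higher with SA. In edgeR 3 and 4 had an unadjusted p under 0.05 for SA and Zip1, against 18.9% and 11.5% of all tested genes. Their medians were 0.12 for SA and 0.21 for Zip1, or 0.44 and 0.37 without mock replicate 2. The cytoplasmic aldolases Zm00001eb144240 and Zm00001eb365200 had log2 fold changes of 0.54 and 0.64 with SA (adjusted p 0.115 and 0.114), and 0.15 and 0.57 with Zip1 (adjusted p 0.848 and 0.303). Set beside the chloroplast aldolase at −0.26 and −0.52, these lay on the other side of 0, and the difference between the genes was not tested.

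Photorespiration recycles the product that Rubisco makes with oxygen. Of its 29 tested genes, edgeR called 1 higher and 1 lower with SA, against 5.11% and 1.11% of all tested genes. It called none with Zip1 against mock, where 3 had an unadjusted p under 0.05, against 11.5% of all tested genes. DESeq2 called 1 higher and 2 lower with SA, as did the replicate block, and 1 higher with Zip1. The list's medians were −0.08 with SA and −0.22 with Zip1, or −0.02 and −0.11 without mock replicate 2. Zm00001eb070280, described as the 2-hydroxy-acid oxidase GLO3 of rice, rose by 2.35 on the log2 scale (SE 0.377, adjusted p 0.00388), with means of 158.9 ± 89.6 in mock and 808 ± 162 normalised counts in SA. Zm00001eb088840, described as hydroxypyruvate reductase HPR3 of Arabidopsis, fell by 1.78 on the log2 scale (SE 0.294, adjusted p 0.00434), with means of 563 ± 99.1 in mock and 164.6 ± 72.1 in SA. These calls against mock, too, held without any single library, and each gene is a low member of the list, with levels per length of 8.74 and 8.71. In edgeR Zm00001eb088840 was also called higher with Zip1 than with SA (log2 difference 1.42, adjusted p 0.0219), as were 1.56% of all tested genes. That call held for 5 of the 9 libraries left out in turn. Of 20 tested genes that export triose phosphate or make sucrose and starch from it, edgeR called none against mock. For SA and Zip1, 3 and 1 had an unadjusted p under 0.05, against 18.9% and 11.5% of all tested genes. DESeq2 called 1 higher and 1 lower with SA, as did the replicate block. Their medians were −0.04 with SA and −0.12 with Zip1, or 0.07 and −0.08 without mock replicate 2. Sucrose-phosphate synthase Zm00001eb275240 was lower with Zip1 than with SA (log2 difference −0.75, adjusted p 0.0234) and stayed called for 4 of the 9 libraries left out in turn, the highest adjusted p being 0.0922. The more abundant sucrose-phosphate synthase gene Zm00001eb364620, at a level of 227.6 per length against 23.1, had the opposite sign, 0.51 (adjusted p 0.358).

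The genes of light harvesting and the photosystems, which share the rise in mock replicate 2, had medians of −0.30 with SA and −0.34 with Zip1 over 68 tested genes, and of −0.03 and −0.07 without that library. In edgeR 1 of them fell with SA, where 1.11% of all tested genes were called lower. It was the photosystem I assembly factor PSA3 (Zm00001eb215070, log2 fold change −1.33, adjusted p 0.0321). The call held for 5 of the 9 libraries left out in turn, and mock replicate 2 was among those without which it was lost (−1.03, adjusted p 0.117). None of the list was called with Zip1, where 5 had an unadjusted p under 0.05, against 11.5% of all tested genes. DESeq2 called 2 lower with Zip1, and the replicate block 3 lower with SA. Their summed level in mock ran from 105329 to 191476 CPM, against 103970 to 137354 in SA and 86084 to 140032 in Zip1, and that of the Calvin-Benson list from 30413 to 51855, against 31662 to 38219 and 30384 to 43977. The part of this common movement in the values of the small subunit and GAPA was not tested. Among 36 tested genes of the C4 cycle, edgeR called 4 higher with SA and 3 with Zip1, against 5.11% and 0.823% of all tested genes. DESeq2 called 5 and 3. With 1 library left out the calls were 2 to 4 with SA and 0 to 2 with Zip1, none remaining without mock replicate 1. The medians were −0.10 and 0.11, or −0.04 and 0.15 without mock replicate 2. Mean levels per length of the called genes were 0.438 to 103.7, against 6169 for the main phosphoenolpyruvate carboxylase gene Zm00001eb383680.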

How the data were processed

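The authors deposited raw counts per gene, 1 column per library, and a gene length per gene. The submitters' processing notes list HISAT2 2.0.5, featureCounts 1.5.0-p3 and DESeq2 1.20.0 without saying what each was used for; the genome build and strand setting are not given in the sources used here. A line emptied from both tables was not analysed here. A deposited FPKM table was not used because its values had lost their decimal points. The number of count columns with no library was 0. All further values were computed here from the counts in R 4.3.3 with edgeR 4.0.16 (quasi-likelihood F test, robust, filterByExpr, TMM, all 9 libraries, group as the only term) and DESeq2 1.42.0 as an alternative. The main edgeR p-values were adjusted by Benjamini-Hochberg over 23077 genes, with calls at an adjusted p under 0.05. DESeq2 adjusted its p-values after its own default filter on mean counts, so its adjustment may cover fewer genes. The pipeline was tested on simulated counts. Approximate SEs were derived from each F statistic, and 95% intervals from these. Ratios within a library were tested by exact permutation, a test chosen after the data were seen. Patterns used log2 CPM with a prior count of 2. The members and lists were chosen with earlier results of these data known. Lists match words in the table's protein descriptions, so they hold some genes of other function, such as GAPCP genes in the Calvin-Benson list and every kind of carbonic anhydrase in the C4 list. Named are the 3 genes, their tested paralogues, called list genes (at most 6 a comparison), otherwise the 2 of lowest p and the 2 of highest level, and the 3 nearest patterns; not all of those eligible are printed. Same-numbered libraries deviated together across genes for SA and mock (correlations 0.154, 0.164 and 0.130). The library names also give same-numbered libraries of all groups a common letter, D, E or F. No label says that the number or the letter marks a shared plant, day or batch. The main fits therefore leave the replicate number out and ignore any pairing, and the replicate block is given as an alternative. Intervals of counting error cover counting only, as PCR duplicates carry no molecular identifiers. Sequences of these genes are not used here.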

Additional observations from a re-analysis of the deposited data

How the results depend on the processing

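None of the 126 alternative values for the 3 genes (9 log2 fold changes, 14 alternatives each) passed an adjusted p of 0.05; the lowest was 0.0704. The alternatives that kept all libraries reversed no direction. Fits that left out 1 library gave, against mock, −0.56 to −0.0047 (small subunit), −0.35 to −0.18 (aldolase) and −0.39 to 0.0851 (GAPA) with SA, and −0.45 to 0.11, −0.69 to −0.43 and −0.25 to 0.23 with Zip1. For Zip1 against SA they gave −0.0437 to 0.21, −0.43 to −0.17 and −0.0684 to 0.28. The reversals came without mock replicate 2, or, for GAPA with Zip1, without Zip1 replicate 2 (0.019) or 3 (0.10), and for Zip1 against SA without Zip1 replicate 1; the cause was not tested. The numbers of all genes called (1436 for SA against mock, 204 for Zip1 against mock, 949 for Zip1 against SA) became 2220, 574 and 1553 with a replicate block, 2449, 930 and 2037 in the DESeq2 Wald test, and 662, 4 and 296 at an adjusted p under 0.01. Leaving out 1 library gave 839 to 1414, 0 to 243 and 456 to 960, the 0 without mock replicate 1. The Calvin-Benson genes called, 0 in each comparison, became 1 for SA against mock and 2 for Zip1 against SA with the block, and 1 for Zip1 against SA in DESeq2. For Zip1 against SA these were the aldolase 3 gene Zm00001eb334740 (1.04, adjusted p 0.0223) and the CP12 gene Zm00001eb373150 (−0.60, adjusted p 0.0457) with the block, and the latter in DESeq2. In the block fit for Zip1 against mock, 1 gene of Rubisco assembly, 2 cytosolic counterparts and 1 of photorespiration were called higher. Same-numbered libraries also deviated together for Zip1 and mock (correlations 0.160, 0.0745 and 0.158) and for Zip1 and SA (0.0759, 0.157 and 0.0870). In every comparison these exceeded each correlation between differently numbered libraries. Block fits changed no call of the 3 genes. Total counts in place of TMM moved no mean level by more than the spread between replicates. Counting error was at most 0.291% for these genes, far under the spread between libraries. List medians and other named genes without mock replicate 2 were added after seeing the data. The medians are not given without mock replicate 3, the lowest mock library for the small subunit and GAPA.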
